A study of Mus musculus with 6 samples.

Results

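The inhibitors of DNA binding *Id1*, *Id2*, *Id3* and *Id4*, the inhibitory Smads *Smad6* and *Smad7*, and the pseudoreceptor gene *Bambi* were examined in bulk RNA-seq of CD11b+ cells purified from subcutaneous tumors. These 7 genes, of 25701 in the count table, were selected by name as direct targets of bone morphogenetic protein (BMP) signaling, and they were chosen from earlier results of the same comparison of knockout with control. Their differences between the groups are therefore given as a description, without a test. All 7 had enough reads to be among the 13485 genes that were fitted.

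The study asked how loss of the monocarboxylate transporter MCT2, encoded by *Slc16a7*, in the host alters tumor-associated macrophages. All mice were MCT2loxP/loxP; Cre+ animals on a C57BL/6 background, carrying the tamoxifen-inducible mCre-Tg transgene. Mice injected at 8 weeks of age with tamoxifen were MCT2 KO and those given vehicle were MCT2 CO, with 3 samples of each, so that deletion and tamoxifen exposure cannot be told apart. TC1 cells, a mouse lung epithelial tumor line in which *Slc16a7* was not targeted, were injected under the skin of the flank, and tumors were taken at day 24. The deletion was systemic, and the promoter driving Cre is not given in the sources used here. The labels give the tissue as lung and the cells as purified macrophages. The cells were obtained by magnetic selection for CD11b, a surface protein of macrophages, monocytes, neutrophils and some dendritic and natural killer cells.

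The libraries held 24863611 to 31713704 counts. Values below are CPM, the counts of a gene scaled to a common library total, as mean ± SD over 3 samples unless single samples are given. Log2 fold changes are KO minus CO from edgeR, with their standard error (SE). *Slc16a7* had 481, 287 and 298 counts in MCT2 CO replicates 1, 2 and 3 and 196, 162 and 133 counts in MCT2 KO replicates 1, 2 and 3. All KO samples were below all CO samples also as CPM, with means of 12.8 ± 2.84 and 6.18 ± 1.78 CPM and a log2 fold change of -1.05 (SE 0.24). Within their groups, MCT2 CO replicate 3 and MCT2 KO replicate 2 differed most from the other samples, and results are also given without them. The macrophage genes *Csf1r*, the receptor for colony-stimulating factor, and *C1qa*, a complement component, were abundant in both groups, at 936 ± 54.7 and 1139.7 ± 189 CPM in CO and 1048 ± 313 and 1421 ± 434 CPM in KO. *Itgam*, which encodes CD11b itself, could not be read from the table: it held 1 count in all, and 99.1% of its exon bases lie within the overlapping gene model *Gm49368*.

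BMP ligands bind pairs of type I and type II serine/threonine kinase receptors, which phosphorylate receptor-regulated Smads that enter the nucleus with *Smad4* and switch on target genes. Id proteins are among the best known targets. They are helix-loop-helix proteins without a DNA-binding region, and they hold E proteins such as *Tcf3* away from their sites, which in blood cells helps set lineage choice. *Smad6*, *Smad7* and *Bambi* close a negative feedback loop: the inhibitory Smads compete for receptors and recruit ubiquitin ligases, and *Bambi* resembles a type I receptor that lacks a kinase domain. Id genes also respond to serum, growth factors and TGF-β, so they do not report on BMP alone.

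The 7 genes lie on 6 chromosomes, given here from GENCODE M21 on GRCm38 and matched by Ensembl identifier. *Id1* (ENSMUSG00000042745) is at chr2:152736251-152737410 on the plus strand, and its exons merge into 1 block of 1160 bases. *Id2* (ENSMUSG00000020644) is at chr12:25093799-25097140 on the minus strand. *Id3* (ENSMUSG00000007872) is at chr4:136143497-136145755 and *Id4* (ENSMUSG00000021379) at chr13:48261228-48266026, both on the plus strand. *Smad6* (ENSMUSG00000036867) spans 68984 bases at chr9:63953076-64022059 on the minus strand with 3205 exon bases. *Smad7* (ENSMUSG00000025880) is at chr18:75367529-75395935 and *Bambi* (ENSMUSG00000024232) at chr18:3507923-3516404, both on the plus strand. None of the 7 overlapped another gene of the table.

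*Id1*, *Id3* and *Id4* were lower in MCT2 KO, each with every KO sample below every CO sample, a pattern of 8.77% of all genes. *Id2* and the feedback inhibitors *Smad6*, *Smad7* and *Bambi* overlapped between the groups. All 7 log2 fold changes were below 0, with a median of -0.59, beside a median of 0.00 over all 13485 genes, of which 6732 were below 0 and 6753 above. Without KO replicate 2, *Id2* and *Bambi* turned to 0.07 and 0.10 and the median was -0.33, and without both libraries that stood apart the median was -0.17. By edgeR's quasi-likelihood test, with an adjusted p of at most 0.05 and a log2 fold change of at least 0.58 in size, 0 of the 7 genes were called, as were 0% of all genes, and 1264 genes had an unadjusted p under 0.05.

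The promoters of the members are shown because BMP-activated Smads are known to act through short motifs near or upstream of such genes. RefSeq promoter sequences on GRCm38.p6 were matched for 4 members, from 250 bases before to 10 bases after the annotated start, written 5′ to 3′ on the strand of the gene. They are *Id2* at chr12:25096083-25096342, minus strand; *Id4* at chr13:48260866-48261125, plus strand; *Id3* at chr4:136143572-136143831, plus strand; and *Smad6* at chr9:64022050-64022309, minus strand. Capitals mark the BMP-responsive core GGCGCC, the Smad palindrome written GTCTAGAC, and the shorter Smad-binding element CAGAC, or GTCTG on the other strand.
*Id2*: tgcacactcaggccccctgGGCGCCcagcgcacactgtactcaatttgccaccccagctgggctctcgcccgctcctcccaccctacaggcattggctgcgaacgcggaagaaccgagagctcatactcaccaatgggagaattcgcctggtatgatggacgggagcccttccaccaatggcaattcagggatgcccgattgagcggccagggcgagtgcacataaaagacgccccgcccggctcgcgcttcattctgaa
*Id4*: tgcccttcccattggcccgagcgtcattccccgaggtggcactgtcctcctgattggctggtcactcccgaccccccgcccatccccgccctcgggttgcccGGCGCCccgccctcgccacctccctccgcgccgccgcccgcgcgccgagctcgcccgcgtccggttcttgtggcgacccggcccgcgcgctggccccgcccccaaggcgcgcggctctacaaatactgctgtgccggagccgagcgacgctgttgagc
*Id3*: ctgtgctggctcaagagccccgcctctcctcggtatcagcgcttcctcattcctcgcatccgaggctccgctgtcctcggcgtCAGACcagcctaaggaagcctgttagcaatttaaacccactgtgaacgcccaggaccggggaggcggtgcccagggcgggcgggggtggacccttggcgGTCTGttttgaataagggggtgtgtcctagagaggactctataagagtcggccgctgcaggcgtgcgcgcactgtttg
*Smad6*: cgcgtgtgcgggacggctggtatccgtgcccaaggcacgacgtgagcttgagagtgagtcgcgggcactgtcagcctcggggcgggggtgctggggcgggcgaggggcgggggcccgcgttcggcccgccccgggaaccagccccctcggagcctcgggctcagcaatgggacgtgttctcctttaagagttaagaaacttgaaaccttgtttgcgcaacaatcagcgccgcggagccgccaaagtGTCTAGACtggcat
The BMP-responsive core was in the *Id2* promoter, 231 bases before the start, and in the *Id4* promoter, 148 bases before it. The same 6 letters occur in 9.96% of the 32851 promoters of this length. *Smad6* alone among the 4 held the palindrome, with its first base 4 bases before the start, a motif present in 0.177% of all promoters. *Id3* held the shorter element at 167 and 68 bases before its start, found in 44% of promoters. The E-box CANNTG, the site that E proteins bind and from which Id proteins keep them, was found in *Id2* alone, at 196 bases before the start, against 67.7% of all promoters. The GC content was 75% for *Id4*, 66.2% for *Smad6*, 62.3% for *Id3* and 61.5% for *Id2*. These matches are letters in a window and are not evidence of binding in these cells.

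*Id1*, the Id protein best known as a BMP target, had 99.7, 95.5 and 186 CPM in MCT2 CO replicates 1, 2 and 3 and 61.8, 34.3 and 39.1 CPM in MCT2 KO replicates 1, 2 and 3. The lowest CO sample stood 1.54 times above the highest KO sample, and the CO spread came mainly from replicate 3, at 1.91 times the mean of the other CO samples. The group means were 127 ± 51.4 CPM in CO and 45.1 ± 14.7 CPM in KO, a 2.82-fold difference and a log2 fold change of -1.50 (SE 0.31). Without CO replicate 3 the log2 fold change was -1.12 (SE 0.23), and without KO replicate 2 it was -1.33 (SE 0.32).

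*Id3*, a close relative that is expressed in lymphocytes and macrophages, had 98.4, 91.8 and 173 CPM in the CO replicates and 67.0, 43.9 and 55.9 CPM in the KO replicates. As for *Id1*, replicate 3 was the highest CO sample and KO replicate 2 the lowest KO sample, and the groups did not overlap. The means were 121 ± 45.2 CPM in CO and 55.6 ± 11.6 CPM in KO, with a log2 fold change of -1.12 (SE 0.26). This became -0.78 (SE 0.17) without CO replicate 3.

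*Id4*, which is known mainly from the nervous system and from stem cells, was scarce, with 2.13, 1.35 and 4.74 CPM in CO and 0.839, 0.859 and 1.04 CPM in KO. These levels are 64, 35 and 126 counts in CO and 20, 28 and 26 counts in KO. The exact Poisson 95% intervals, which cover counting error only, were 24.4 to 48.7 counts for CO replicate 2 and 18.6 to 40.5 counts for KO replicate 2, so the lowest CO library and the highest KO libraries were not separated by counting alone. The log2 fold change was -1.58 (SE 0.46), and it was -0.93 (SE 0.30) without CO replicate 3, the sample that held 2.72 times the mean of the other CO samples.

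*Id2*, which is needed for several dendritic cell and innate lymphoid lineages, was the Id gene that differed least. It had 170.1, 153 and 195 CPM in CO and 192, 82.8 and 169 CPM in KO. KO replicate 2 was the single low value, at 0.458 times the mean of the other KO samples, and the remaining KO samples lay within the CO range. The log2 fold change was -0.22 (SE 0.27) with all samples and 0.07 without KO replicate 2.

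**Figure D1:**
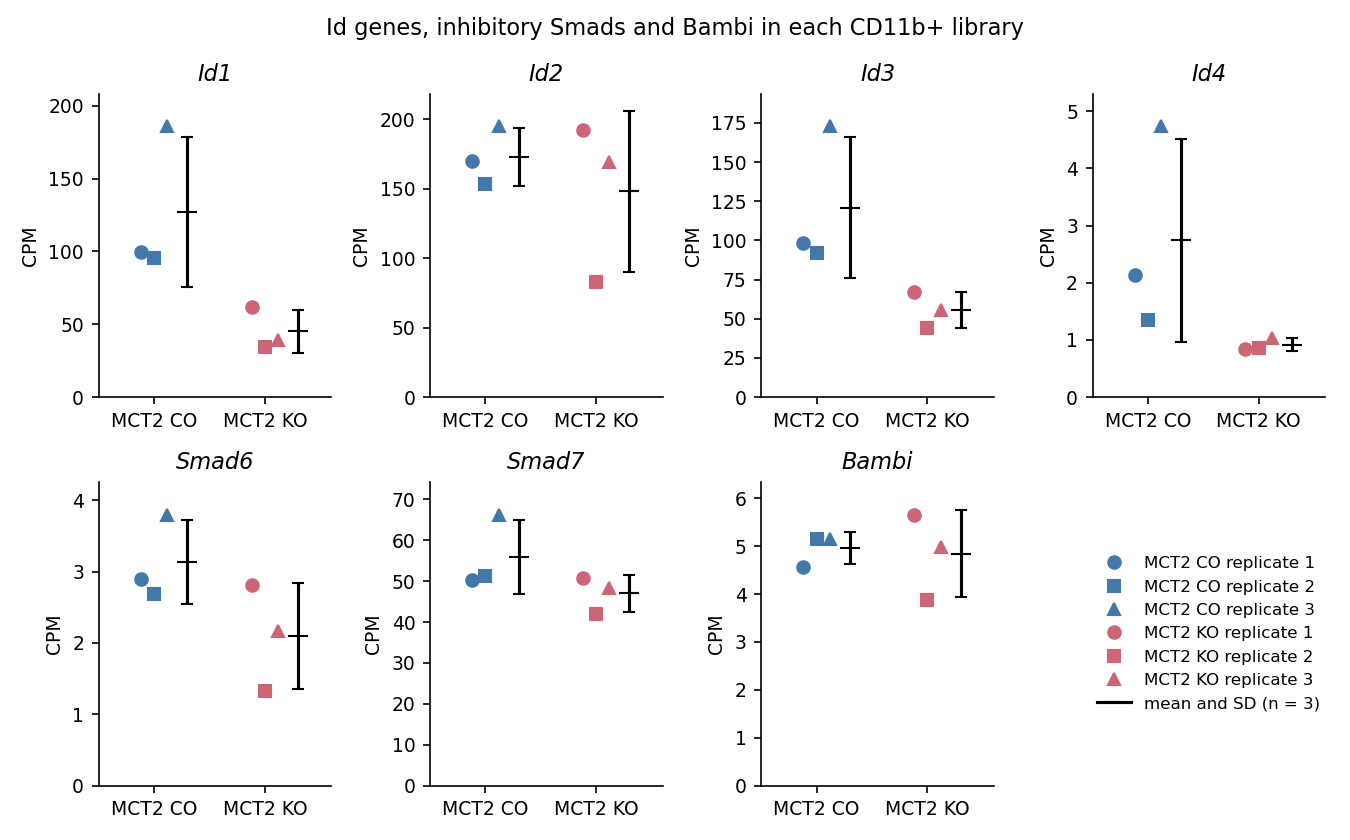
CPM (vertical axis, from 0) of each of the 7 genes in MCT2 CO (blue) and MCT2 KO (red), 1 symbol per replicate, with black bars for the mean and SD of 3 samples. For *Id1*, *Id3* and *Id4* every MCT2 KO point lies below every MCT2 CO point, while *Id2*, *Smad6*, *Smad7* and *Bambi* overlap.

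Among the feedback inhibitors, *Smad6*, which preferentially restrains BMP receptors, had 2.9, 2.69 and 3.8 CPM in CO and 2.81, 1.32 and 2.17 CPM in KO. KO replicate 1 lay within the CO range and KO replicate 2 was the lowest of the 6. The log2 fold change was -0.59 (SE 0.30), and -0.33 without KO replicate 2.

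*Smad7*, which restrains TGF-β receptors as well, had 50.2, 51.2 and 66.3 CPM in CO and 50.9, 42.0 and 48.3 CPM in KO. The highest KO sample exceeded the lowest CO sample, and the means of 55.9 ± 9.03 and 47.0 ± 4.56 CPM differed by a log2 fold change of -0.25 (SE 0.13). Without CO replicate 3 this was -0.11.

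*Bambi* had 4.57, 5.15 and 5.15 CPM in CO and 5.66, 3.87 and 4.98 CPM in KO. The KO samples included both the highest and the lowest value, and the log2 fold change was -0.04 (SE 0.19).

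**Figure D2:**
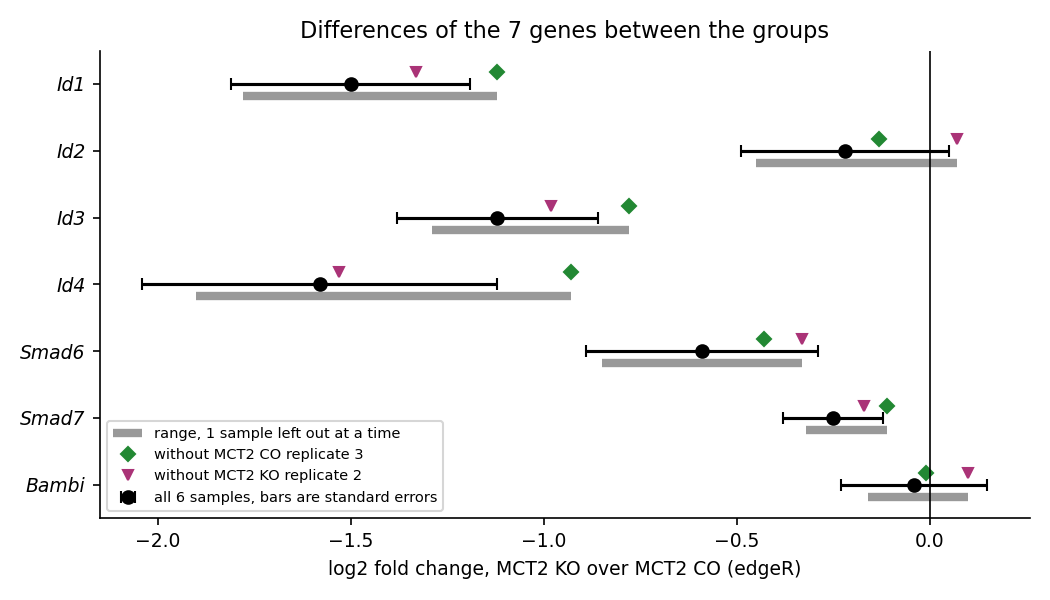
Log2 fold change of each gene, MCT2 KO minus MCT2 CO, from edgeR: black points with SE bars for all 6 samples, green diamonds without CO replicate 3, purple triangles without KO replicate 2 and grey bars for the range with 1 sample left out at a time. *Id1*, *Id3* and *Id4* stay below 0 throughout, while the grey bars of *Id2* and *Bambi* cross it.

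Without MCT2 CO replicate 3 and MCT2 KO replicate 2 together, the log2 fold changes were -0.95 (SE 0.18) for *Id1*, -0.63 (SE 0.11) for *Id3* and -0.89 (SE 0.34) for *Id4*, each nearer 0 than with all samples. They were 0.16 for *Id2*, -0.17 for *Smad6*, -0.03 for *Smad7* and 0.13 for *Bambi*. *Id1*, *Id3* and *Id4* were the 3 members with KO wholly below CO, both with all samples and without either or both of these libraries. The share of all genes with this pattern was 8.77% (1183 of 13485) with all samples, 11.6% without CO replicate 3, 16.3% without KO replicate 2 and 20.5% without both. Because the genes were chosen from this contrast, nothing is read from the count of 3 in 7.

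The choice of count model changed which members passed the thresholds. DESeq2 called *Id1* and *Id3* among the 13485 filtered genes, where it called 0.586% of all genes (79), and *Id3* alone among 18508 genes with at least 1 count, where it called 0.448% (83). edgeR with other scaling or filters and limma-voom called 0 of the 7. These calls rest on the contrast that chose the genes and add no independent evidence.

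**Figure D3:**
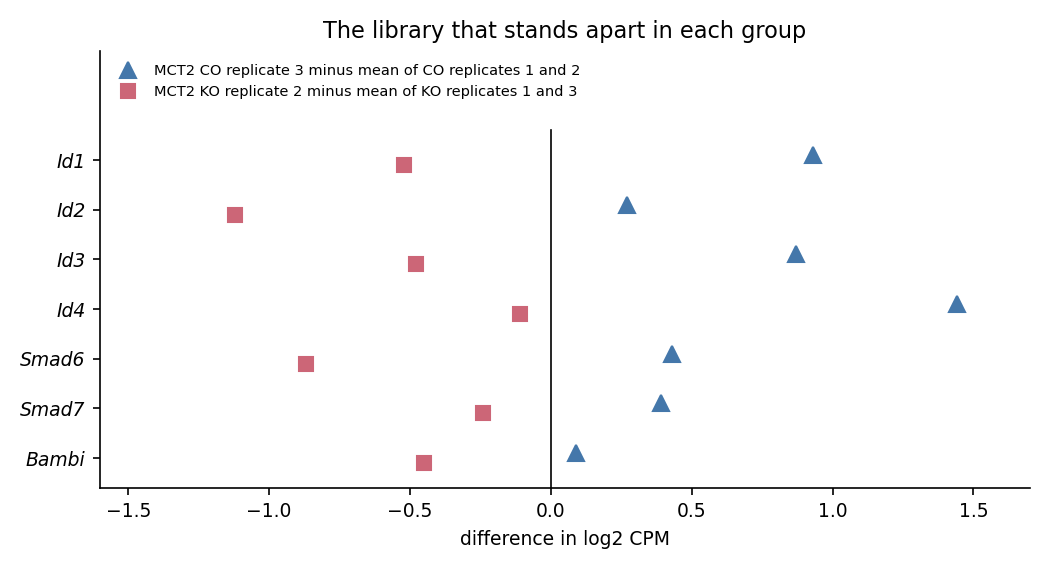
Difference in log2 CPM between the library that stands apart in each group and the mean of the other samples of its group, for each gene. CO replicate 3 lies above 0 for all 7 genes, from 0.09 for *Bambi* to 1.44 for *Id4*, and KO replicate 2 lies below 0 for all 7, from -0.11 for *Id4* to -1.12 for *Id2*.

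The excess in CO replicate 3 of *Id4* was the 82nd highest of the 13485 genes, that of *Id1* the 336th and that of *Id3* the 423rd. In KO replicate 2, *Id2* had the 248th lowest difference and *Smad6* the 488th. *Id4* therefore deviated most in CO replicate 3 and least in KO replicate 2, while *Id2* deviated most in KO replicate 2.

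Levels can be compared between genes only per length, and the following are CPM per kilobase of exon. In CO the order was *Id1* at 109.6 ± 44.3, *Id2* at 70.8 ± 8.56, *Id3* at 67.6 ± 25.2 and *Smad7* at 12.4 ± 2.00, followed by *Smad6* at 0.977 ± 0.184, *Bambi* at 0.977 ± 0.0665 and *Id4* at 0.712 ± 0.462. *Id1* was above *Id2* and *Id3* in every CO sample, while *Id2* and *Id3* changed places in CO replicate 3. The means of *Smad6*, *Bambi* and *Id4* differed by less than their spread over samples, and *Smad7* lay between these and the first 3 in every sample. In KO, *Id2* was highest at 60.7 ± 23.7 and *Id1* next at 38.9 ± 12.7, and *Id2* was above *Id1* in each KO sample, at 79.0 against 53.3, 33.9 against 29.6 and 69.2 against 33.7. On the length of the whole gene span, *Id3* came before *Id2* in CO and *Smad6* was last.

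Ratios of counts within a sample do not depend on the library total. *Id1* over *Id3* was 1.01, 1.04 and 1.08 in CO and 0.923, 0.782 and 0.7 in KO, so *Id1* was lower relative to *Id3* in every KO sample. *Id1* over *Id2* was 0.586, 0.623 and 0.958 in CO and 0.321, 0.415 and 0.232 in KO, again without overlap.

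The genes whose log2 CPM followed *Id1* most closely, ranked by Pearson's r among 10614 genes with a mean of at least 5 CPM over the 6 samples, were *Tiparp* (r = 0.996), *Akt1s1* (0.996), *Phf21a* (0.995), *Atf4* (0.995) and *Prdm2* (0.995). For *Id3* they were *Prdm2* (0.994), *Fzd5* (0.994), *Ccnl1* (0.993), *Slc35f5* (0.993) and *Camkk2* (0.991). *Id3* was the 7th gene for *Id1* and *Id1* the 6th for *Id3* (r = 0.989), and on deviations from the group means these ranks were 37 and 43 (r = 0.964). The correlation is a description over 6 samples of 2 groups that share the KO and CO difference. On the deviations, *Akt1s1*, *Camkk2*, *Prdm2*, *Phf21a* and *Tiparp* were nearest *Id1* and *Arl5b*, *Alg8*, *Lifr*, *Mcub* and *Sem1* nearest *Id3*. The log2 fold changes of these genes ran from -0.56 for *Arl5b* to 0.08 for *Alg8*, smaller in size than those of *Id1* and *Id3*. *Mcub* (r = 0.993) hardly varied, with 34.8, 34.7 and 36.3 CPM in CO and 37.2, 36.0 and 36.5 CPM in KO. With 6 samples and 10614 genes ranked, correlations this high can arise by chance, so nothing is read from the names.

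The wider BMP and TGF-β pathway was read from lists of 77 genes outside the 7, of which 55 were tested. edgeR called 0 of the 55, 45 had a log2 fold change below 0 and 10 above, and the median was -0.10, beside 0.00 for all genes. Without both libraries that stood apart, 36 were below 0 and the median was -0.05. Among the ligands, *Bmp2* and *Bmp4* were the only ones with enough reads, and *Bmp4* had 7.37, 9.58 and 21.1 CPM in CO and 7.76, 10.7 and 10.6 CPM in KO, its log2 fold change of -0.39 (SE 0.36) turning to 0.19 without CO replicate 3. *Bmp2* was more abundant, at 381 ± 49.6 CPM in CO and 333 ± 40.0 CPM in KO.

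Of 10 receptors and co-receptors tested, 8 were below 0, with a median of -0.06. *Bmpr2*, the type II BMP receptor, stood at 109.6 ± 1.75 CPM in CO and 108 ± 1.58 CPM in KO. *Acvr1*, a type I receptor, was the 1 receptor with KO wholly below CO, at 68.8 ± 2.5 and 61.7 ± 1.57 CPM. Over all genes 8.77% had this pattern. Of the Smads that carry the BMP signal, *Smad1* overlapped between the groups, at 73.9 ± 2.15 CPM in CO and 70.4 ± 4.81 CPM in KO. *Smad5* had every KO sample below every CO sample, at 79.0 ± 1.36 and 71.4 ± 2.71 CPM, with a log2 fold change of -0.15 (SE 0.07), about the size seen for *Acvr1* at -0.16 (SE 0.07). The E proteins, the partners of Id proteins, were below 0 for all 3 genes, with a median of -0.12. All 3 overlapped between the groups, and *Tcf12* was at -0.01 (SE 0.10) and at 0.04 without CO replicate 3.

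Among 7 tested antagonists, which bind BMP ligands outside the cell, 6 were below 0. *Nbl1* stood at 15.4, 17.8 and 40.9 CPM in CO and 12.4, 13.7 and 12.9 CPM in KO, where CO replicate 3 again was the high sample, and its log2 fold change of -0.92 (SE 0.34) was -0.35 (SE 0.12) without that sample. *Fst* went the other way, with 525, 565 and 671 CPM in CO and 505, 853 and 766 CPM in KO. Regulators of Smad activity gave 10 of 11 below 0 with a median of -0.11, and TGF-β ligands and receptors 7 of 9 with a median of -0.10, which became 4 of 9 and 0.01 without both libraries that stood apart. Targets of TGF-β went in both directions, with 2 of 5 above 0 and a median of -0.26 (-0.04 without KO replicate 2), and *Tgfbi*, a secreted matrix protein, was at 0.43 (SE 0.26).

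Of 6 further BMP target genes 3 were tested, with a median log2 fold change of -0.77. *Msx1*, a homeobox gene, had 13.4, 11.5 and 15.4 CPM in CO and 7.97, 7.89 and 7.83 CPM in KO, with a log2 fold change of -0.77 (SE 0.14). *Hes1*, also a target of Notch, had 25.3, 22.0 and 41.3 CPM in CO and 15.8, 14.5 and 14.7 CPM in KO, with a log2 fold change of -0.98 (SE 0.22). Both had every KO sample below every CO sample, a pattern of 8.77% of all genes, and *Hey1* was at 0.27 (SE 0.35) with overlap. edgeR's adjusted p was 0.37 for both, while DESeq2 gave 0.00475 for *Msx1* and 0.00807 for *Hes1* on all genes with at least 1 count, so their call depended on the tool. DESeq2 called 0.448% of those genes. The lists were drawn with earlier results known, so this is no independent evidence.

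**Figure D4:**
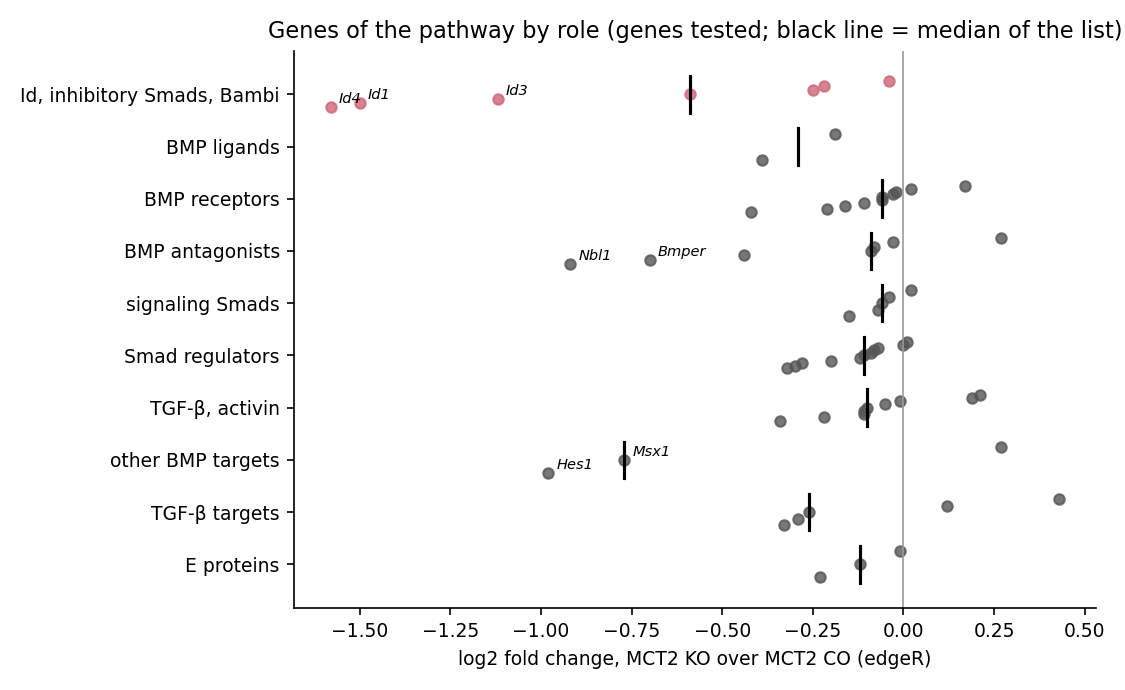
Log2 fold change, MCT2 KO minus MCT2 CO, of the members and of the tested genes of each pathway list, 1 point per gene and a black line at each list's median (members in red). *Hes1*, *Nbl1* and *Msx1* are the lowest points outside the 7 genes, and the medians of the receptors and the signaling Smads are both -0.06.

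Cells other than macrophages can carry these genes, and in bulk samples fewer cells of a type and less RNA per cell cannot be told apart. The sum of 9 fibroblast markers, among them *Col3a1* and *Dcn*, ran from 2078 to 3436 CPM in CO, with the highest in replicate 3, and from 1754 to 1853 CPM in KO. For these markers 8 of 9 log2 fold changes were below 0 and the median was -0.62. Without CO replicate 3, 7 of 9 were below 0 and the median was -0.19, and without both libraries it was -0.29. *Col3a1*, *Dcn* and *Lum* had every KO sample below every CO sample, a pattern of 8.77% of all genes. DESeq2 called these 3 on all genes with at least 1 count, where it called 0.448% of genes. On the filtered genes it called *Col3a1* and *Lum*, with 0.586% of genes called, and edgeR called 0. The part of the fibroblast markers in the *Id1*, *Id3* and *Id4* differences was not tested. Per 1000 CPM of fibroblast markers, *Id1* stood at 48.0, 41.9 and 54.3 in CO and 33.4, 18.5 and 22.3 in KO, without overlap. *Id3* on the same scale was 47.4, 40.3 and 50.4 in CO and 36.2, 23.7 and 31.9 in KO. *Id4* overlapped, with 1.03, 0.591 and 1.38 in CO and 0.453, 0.464 and 0.595 in KO. *Col3a1* carried most of the fibroblast sum, at 1489 ± 468 CPM in CO and 881 ± 118 CPM in KO, so these ratios rest mainly on that gene. Single markers ran from a log2 fold change of -1.56 (SE 0.37) for *Lum*, beside -1.50 for *Id1*, to 0.53 (SE 0.34) for *Thy1*. Ratios to another marker would therefore differ.

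Endothelial cells are known for strong *Id1* and *Id3* expression, and their 15 markers summed to 241 to 246 CPM in CO and 235 to 302 CPM in KO. Of their log2 fold changes 9 of 15 were above 0 (median 0.22). This was 14 of 15 without CO replicate 3 (median 0.41) and 15 of 15 without both libraries that stood apart (median 0.42). *Flt1* had the largest part of the sum, at 121 ± 9.07 CPM in CO and 127 ± 8.3 CPM in KO. Single markers differed from the sum: in CO replicates 1, 2 and 3 *Cdh5* had 11.8, 15.5 and 21.1 CPM, and *Pecam1* had 50.9, 48.9 and 39.5 CPM. *Id1* per endothelial sum was 0.407, 0.388 and 0.775 in CO and 0.229, 0.146 and 0.13 in KO. Of 10 tested macrophage markers, 10 had a log2 fold change above 0, with a median of 0.28 and sums of 5409 to 7296 CPM in CO and 6551 to 10312 CPM in KO. All 10 overlapped between the groups, and KO replicate 1 had the highest sum. The median was 0.19 without CO replicate 3 and 0.50 without KO replicate 2, where 9 of 10 were above 0. With 1 sample left out at a time, *Csf1r* fell as low as -0.10. *Adgre1*, *C1qc*, *Mrc1* and *Fcgr1* also fell below 0, and the other tested markers stayed above it. The 5 epithelial markers summed to 13.9 to 20.9 CPM in CO and 18.5 to 33.5 CPM in KO. Of these, *Cdh1* carried most, at 15.9 ± 3.64 CPM in CO and 23.2 ± 7.73 CPM in KO, with a log2 fold change of 0.54 (SE 0.25), *Epcam* was at -0.16, and the keratins *Krt8*, *Krt18* and *Krt19* were under the count filter. This list does not measure how many TC1 cells the samples held. The paper states that telling TC1 cells from host mesenchymal cells definitively would take lineage tracing or copy-number analysis. The fibroblast markers above may therefore come from either, which was not tested. Of 17 genes that tissue dissociation is known to induce, 15 were below 0, with a median of -0.33 (-0.18 without CO replicate 3) and summed levels of 17319 to 20804 CPM in CO and 14751 to 17858 CPM in KO, and their part in the results was not tested.

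Immune cells other than macrophages were also present at low summed levels. The neutrophil list summed to 80 to 101 CPM in CO and to 180.2, 63 and 133 CPM in KO replicates 1, 2 and 3, with 6 of 7 tested genes above 0 and a median log2 fold change of 1.87. *Csf3r*, a receptor also found on monocytes, carried most of that sum, at 41.1 CPM in KO replicate 2 and 70.9 to 94.3 CPM in CO. *S100a8*, *S100a9*, *Retnlg*, *Ngp* and *Ltf* had every KO sample above every CO sample, a pattern that 953 of all 13485 genes had. For *S100a9* the values were 20.9, 9.12 and 7.63 CPM in KO against 3.5, 2.58 and 4.18 CPM in CO. DESeq2 called 4 of them and edgeR 0. The B cell list summed to 80.2 to 96.1 CPM in CO and to 97.8, 23.5 and 109 CPM in KO, with 6 of 6 tested genes below 0. The T and NK cell list summed to 26.6 to 50.1 CPM in CO and to 34.7, 8.1 and 81.7 CPM in KO, and the dendritic list to 40.9 to 51.2 CPM in CO and to 58, 23.8 and 45.5 CPM in KO. KO replicate 2, the sample with the lowest *Id2*, had the lowest of the 6 sums for the B cell, T and NK cell and dendritic lists, and for the neutrophil list through *Csf3r*. *Id2* is known from dendritic, T and NK cells, and the part of these cells in its low value there was not tested.

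**Figure D5:**
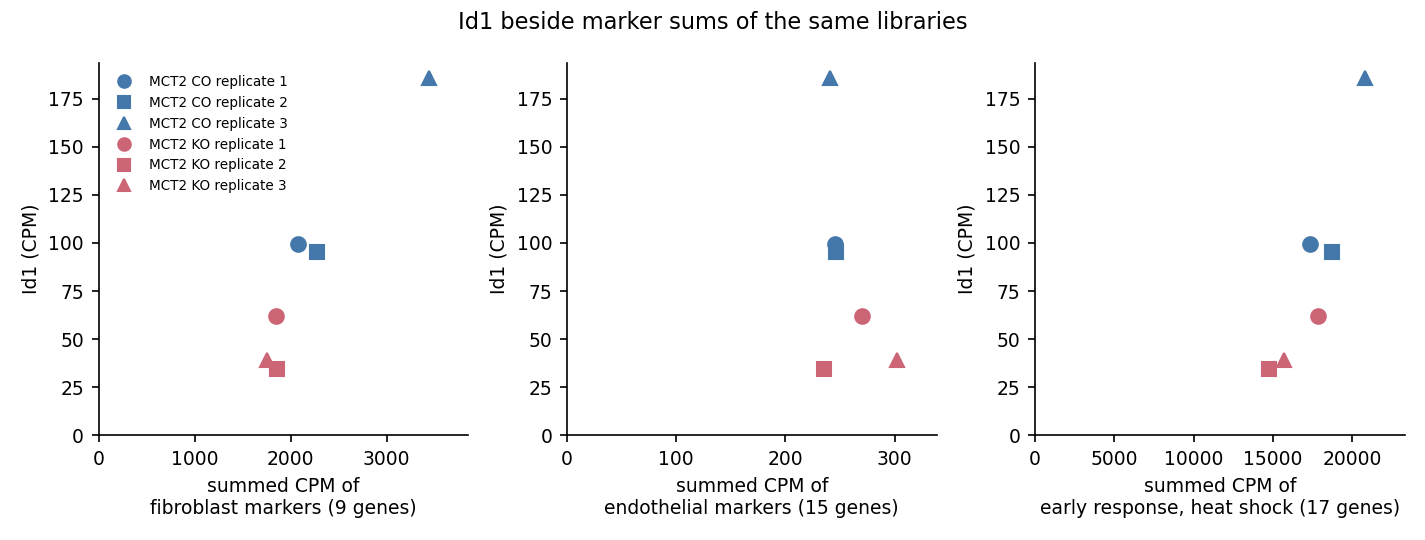
*Id1* (CPM, vertical axis) against the summed CPM of fibroblast markers, endothelial markers and early response and heat shock genes in each of the 6 samples, 1 symbol per replicate. CO replicate 3, at 186 CPM of *Id1*, has the highest fibroblast sum (3436 CPM) and early response sum (20804 CPM). Its endothelial sum of 241 CPM lies within the range of the others, but *Flt1* makes 112 CPM of it. The single marker *Cdh5* was highest among the CO samples in CO replicate 3.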

How the data were processed

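RNA from CD11b+ cells of 3 MCT2 CO and 3 MCT2 KO samples was made into stranded poly-A libraries. The authors deposited raw counts per gene, and the submitters' processing notes name FastQC 0.12.0, MultiQC 1.28, STAR 2.7.11b, featureCounts 2.1.1 and GRCm38. The feature type, annotation and strand setting are not given in the sources used here, and the length column equals the whole gene span, so reads in introns may be included. Replicates are the samples so numbered in the titles, and the library names carry other numbers for the knockouts.

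Genes were kept with edgeR's filterByExpr (minimum count 10, minimum total 15), scaled with TMM and tested with edgeR 4.0.16 quasi-likelihood fits in R 4.3.3, without covariates, with Benjamini-Hochberg adjustment. DESeq2 1.42.0 and limma 3.58.1 were alternatives, and the scripts were tested on simulated data. The 7 genes, the pathway and marker lists and the likeness rule (5 genes by Pearson's r for *Id1* and *Id3*, mean of at least 5 CPM) were chosen with earlier results of these data known, and every gene named in the text comes from them apart from genes called under single alternatives. P-values measure the spread between these samples, which may be technical where the labels do not name separate mice. Log2 CPM used a prior count of 2. Leaving out MCT2 CO replicate 3 and MCT2 KO replicate 2 together was chosen after seeing the data. Gene positions are from GENCODE M21, and 2.22% of the deposited starts equal it.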

Additional observations from a re-analysis of the deposited data

How the results depend on the processing

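The number of genes called was 0 by edgeR, 0 by limma-voom, 79 by DESeq2 after the count filter and 83 by DESeq2 without it. Without the filter edgeR called 2, *Gpnmb* and *Egr4*. Without both libraries that stood apart, edgeR called 10. With all samples 1264 genes had an unadjusted p under 0.05. Leaving out each replicate gave 0 to 2 calls, the 2 (*Hspa1b* and *Lipg*) without KO replicate 2. Pathway calls were 0 with edgeR and 2 (*Msx1* and *Hes1*) with DESeq2 in both forms. Marker calls were 0, then 12 with unfiltered and 9 with filtered DESeq2, 1 (*Hspa1b*) without both libraries, and 0 to 1 over the replicates left out. The median log2 fold change of the 7 genes was -0.59, and it ran from -0.85 to -0.33 without each replicate and was -0.17 without both libraries. The labels state no pairing of samples by replicate number. Same-numbered deviations correlated at 0.216, -0.247 and -0.161 and differently numbered ones at -0.212 to 0.292. So few correlations cannot settle whether samples were paired. With the replicate number as a block edgeR called 0 genes, and the median was -0.62. Over all alternatives the log2 fold change ran from -1.78 to -0.95 for *Id1*, -1.29 to -0.63 for *Id3* and -1.90 to -0.89 for *Id4*, and crossed 0 for *Id2* (-0.45 to 0.16) and *Bambi* (-0.16 to 0.13). *Id4* rested on 20 to 126 counts a library and *Smad6* on 43 to 101.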
